A study of Homo sapiens with 6 samples.

Results

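Long intergenic RNAs that were expressed in Hep-G2 cells were examined in cells depleted of calmegin (CLGN) and in control cells. A gene typed as lincRNA in the deposited annotation was chosen by its measured level alone, which had to reach 1 FPKM in 3 or more of the 6 libraries. FPKM is the number of fragments on a gene, scaled by the length of the gene and the size of the library. Of 58735 genes in the table, 7629 were long intergenic RNAs, and 449 of these passed the level. The SNHG genes (hosts of small nucleolar RNAs) and the 10 widely studied names H19, MALAT1, NEAT1, NORAD, OIP5-AS1, MIR22HG, LINC-PINT, PVT1, HULC and FTX were set aside. This removed 9 of the 449, namely MALAT1, MIR22HG, NEAT1, NORAD, SNHG15, SNHG19, SNHG25, SNHG4 and SNHG8, and left 440 members.

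To profile transcripts after CLGN depletion, RNA was sequenced from Hep-G2, an established human liver cancer line. The sh-CLGN cells (n = 3 libraries) carried a lentiviral short hairpin against CLGN, which encodes a chaperone of the endoplasmic reticulum, and the sh-NC cells (n = 3 libraries) carried a negative control hairpin. Both kinds of cell were transduced and selected with puromycin, each group rests on 1 hairpin sequence, and all libraries share the same batch label, 0DAY. The labels type the control genotype as WT and do not say whether libraries of a group came from separate cultures, so p-values measure the spread between these libraries, which may be technical.

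Long intergenic RNAs are transcripts that lie between protein-coding genes and have no long open reading frame. They are spliced and polyadenylated like messenger RNAs, but most are rarer, often stay in the nucleus and are tied to few cell types. Some act on the gene beside them, some scaffold protein complexes, some carry a microRNA that is cut from the primary transcript, and many start from a promoter that also fires a coding gene in the other direction.

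The libraries held 14955816 to 16244639 reads on genes. CLGN itself was 24.1, 21.0 and 26.1 FPKM in sh-NC and 9.48, 8.88 and 8.60 FPKM in sh-CLGN (log2 fold change -1.31, SE 0.081, limma adjusted p = 8.35e-06). All 11 hepatocyte markers were at 1 FPKM or more in each library, and at adjusted p 7 of them fell and 3 rose, with a median log2 fold change of -0.32. TF, the iron carrier transferrin, fell most, from a mean of 181 to 58.4 FPKM (-1.62), and ALB, the albumin gene, fell from 2007 to 1076 FPKM (-0.90). The 3 that rose were FGB (0.72), TTR (0.58) and the fetal liver protein gene AFP (0.50, from 2670 to 3782 FPKM). The fibroblast and smooth muscle list (COL1A1, COL1A2, COL3A1, ACTA2, TAGLN, PDGFRB, DCN and LUM) summed to 7.19 to 8.88 FPKM in sh-NC and 63.8 to 66.0 FPKM in sh-CLGN. Of its 8 genes, 6 were tested, and all 6 rose at adjusted p. The others were DCN, with 0 reads in 5 libraries, and ACTA2, with 1 to 5 reads in each library. The 4 endothelial markers summed to 2.38 to 3.67 FPKM and the 4 immune markers to 0.471 to 1.48 FPKM over the 6 libraries. The part of other cell types in the values of the long intergenic RNAs was not tested.

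The members took a larger share of the reads in sh-CLGN than in sh-NC. They held 0.161%, 0.164% and 0.169% of the reads in the sh-NC libraries and 0.248%, 0.246% and 0.247% in the sh-CLGN libraries. The groups did not overlap, at means of 0.165% ± 0.00366 and 0.247% ± 0.000923 (SD, n = 3), a ratio of 1.50. On the FPKM scale the members summed to 1020.4, 1013 and 1015 in sh-NC and to 1272, 1241 and 1244 in sh-CLGN, a ratio of 1.23. The scales differ: the FPKM values rest on library sizes that are 0.933 to 0.953 of the reads in sh-NC and 1.07 to 1.08 of them in sh-CLGN, and a sum of FPKM gives short genes more weight. In bulk RNA, a change per cell and a change in the makeup of the cells cannot be told apart. Members at 1 FPKM or more in all 6 libraries gave ratios of 1.40 for reads and 1.11 for summed FPKM. Without LINC01419, the member with the highest level, the ratios were 1.48 and 1.22. Without XIST, the member that had the most reads, they were 1.40 and 1.23, an alternative added after seeing the data. XIST was 1.24 higher in sh-CLGN on the log2 scale (limma adjusted p = 2.89e-05). Of its stretches of 50 bases, 28.4% match TSIX on either strand.

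**Figure D1:**
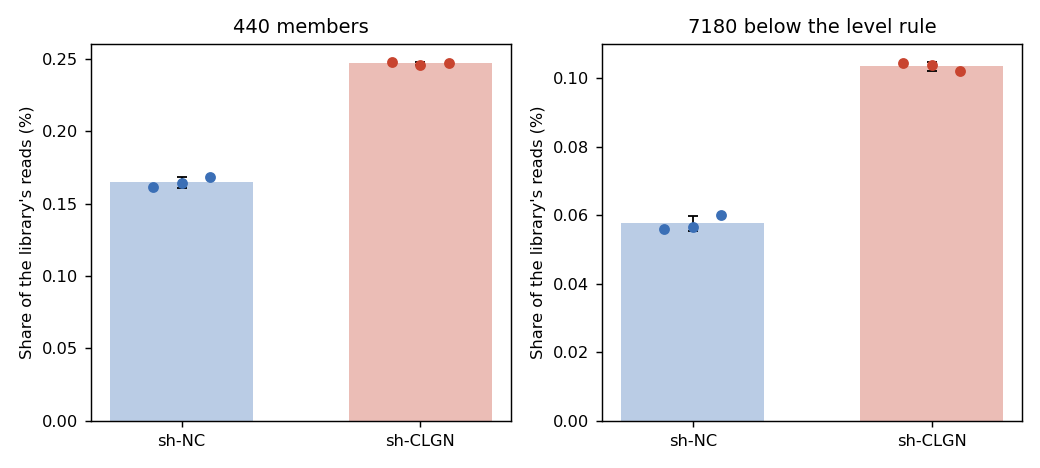
Share of each library's reads (%) on the 440 members (left) and on the 7180 long intergenic RNAs below the level (right), with points for libraries, bars for group means and error bars for the SD (n = 3 per group). In both panels the 3 sh-CLGN libraries lie above the 3 sh-NC libraries, at means of 0.247% against 0.165% on the left and 0.104% against 0.0577% on the right.

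Genes were compared by limma on log2(FPKM + 1) over all 13074 genes that passed the same level, and the call needed both an adjusted p no higher than 0.05 and a log2 fold change of 1 or more in size. On this scale the change of a low gene is understated. Of the 440 members, 35 were called higher in sh-CLGN (7.95%), where the percentage over all tested genes was 3.09. Only 2 members were called lower (0.455%), against 3.19 percent of all tested genes, and 6.28 percent of all tested genes were called in either direction. At adjusted p alone 176 members rose (40%, against 26.7 percent of all tested genes) and 68 fell (15.5%, against 39.0 percent). The remaining 196 did not pass, and over both directions 65.8 percent of all tested genes did. The libraries of the groups did not overlap for 181 higher and 70 lower members, which is 57% of the members beside 70.2 percent of all tested genes. By direction that background was 28.7 percent higher and 41.5 percent lower.

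The median log2 fold change of the members was 0.25, with quartiles of -0.12 and 0.60, beside -0.08 over all tested genes and -0.12 over the 10986 tested protein-coding genes. Their levels were low. The median of their mean FPKM was 1.72 against 6.03 over all tested genes, and the median SE of a log2 fold change was 0.126 against 0.0779. A member had between 10 and 17495 reads over the 6 libraries, with a median of 200. Fewer than 60 reads lay on 50 members, among them 5 of the 37 called. The choice of scaling moved the counts: quantile normalization called 19 members higher and 5 lower, and scaling by read totals put 212 higher and 38 lower past the adjusted p. A pseudocount of 0.1 in place of 1 called 100 higher and 11 lower, and limma-voom on reads recovered from the FPKM called 108 higher and 11 lower. The shares of all tested genes called under these settings were not counted, so these counts have no background beside them.

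How a member passed the level bears on these counts. For 213 members all 6 libraries reached 1 FPKM. Of these, 9 were called higher (4.23%, against 3.09 percent of all tested genes) and 1 lower (0.469%, against 3.19 percent). At adjusted p alone 66 members of that class rose (31%, against 26.7 percent) and 46 fell (21.6%, against 39.0 percent). The median log2 fold change of the class was 0.05. A further 61 members reached 1 FPKM in the sh-CLGN libraries and in no sh-NC library, so that they had to lie higher in sh-CLGN. They hold 17 of the 35 members called higher, among them 6 of the 10 largest rises described later (AC009414.2, AL590004.3, AC009159.3, U73166.1, LINC01268 and AC015909.1). The reverse class, at 1 FPKM in the sh-NC libraries alone, held 11 members, none of them called and 10 of them lower at adjusted p. The 155 others reached the level in a mixture of libraries, with 9 called higher (5.81%), 1 called lower (0.645%) and a median of 0.29. At the edge of the level, AC092941.1 and ZNF236-DT were just inside, where the library that decided (rank 3 of 6 by level) stood at 1.01 and 1.00 FPKM, and AC067838.1 and LINC02100 were just outside, at 0.994 and 0.991 FPKM.

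**Figure D2:**
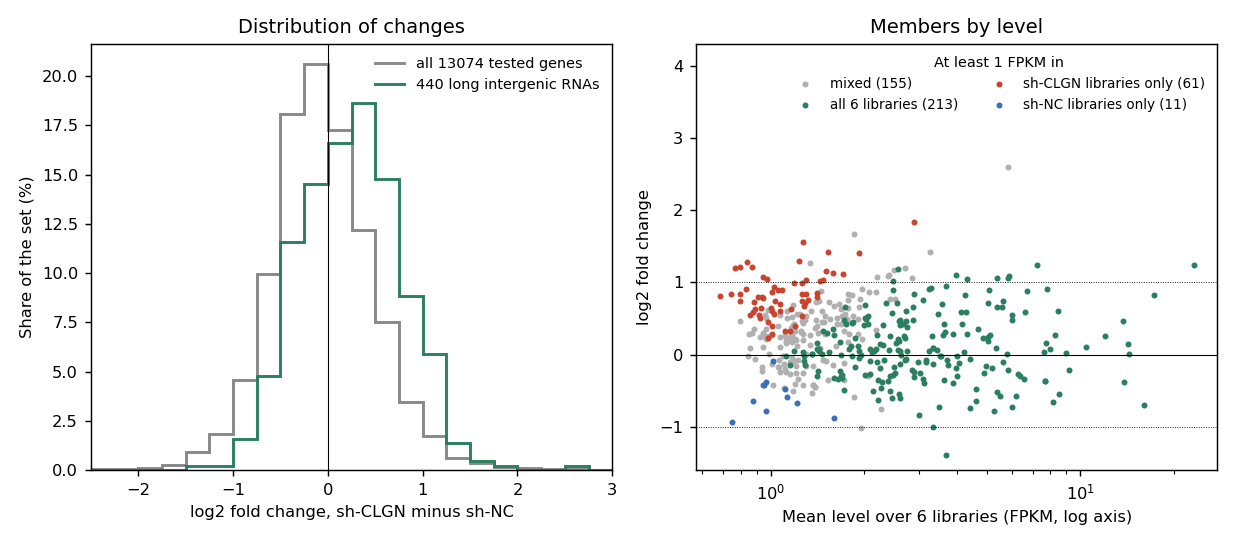
Left, share (%) of all 13074 tested genes and of the 440 members in each bin of log2 fold change (sh-CLGN minus sh-NC), where the members lie further to the right. Right, log2 fold change of each member against its mean FPKM over 6 libraries (log axis), coloured by the libraries in which it reached 1 FPKM, with dotted lines at 1 and -1. The members that reached it in sh-CLGN alone lie above 0 at low levels, and the 213 that reached it in all 6 libraries lie on both sides of 0.

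The 10 members with the highest mean level did not move together. LINC01419, a long intergenic RNA of chromosome 8 described in hepatocellular carcinoma, led both in level and in the size of its rise among these 10. Its values were 14.7, 13.2 and 12.3 FPKM in sh-NC and 32.7, 33.3 and 33.2 FPKM in sh-CLGN (log2 fold change 1.24, SE 0.0654, adjusted p = 4.57e-06). The 3 sh-CLGN libraries lay well above the highest sh-NC library. LINC02575, at chr21:44485577-44490288 (GRCh38, plus strand), measured 11.2, 12.4 and 12.9 FPKM in sh-NC and 21.1, 23.1 and 22.5 FPKM in sh-CLGN (log2 fold change 0.82, adjusted p = 2.31e-05). It rose without reaching the fold threshold, and its groups did not overlap.

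AP003419.2, at chr11:67353629-67354348 (plus strand), stood highest in sh-NC. It fell from 22.2, 18.6 and 19.4 FPKM to 12.5, 9.61 and 14.0 FPKM (log2 fold change -0.70, SE 0.126, adjusted p = 0.00159). It overlaps 3 protein-coding genes, with POLD4 on the opposite strand, and without a stated strand in the counting the reads of overlapping genes cannot be told apart. AP001005.3 on chromosome 18 lost level as well, from a mean of 15.8 ± 1.92 to 11.9 ± 1.12 FPKM (SD, n = 3, log2 fold change -0.38, adjusted p = 0.00834). That call was lost under GC correction (adjusted p = 0.269), quantile normalization (0.129), scaling by read totals (0.114) and TPM (0.0533). It shares 50-base stretches with the tubulin pseudogene TUBBP5, so its count is uncertain.

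EBLN3P, a transcript with an ancient bornavirus-derived insertion, rose from a mean of 11.4 ± 0.889 to 16.0 ± 0.236 FPKM (log2 fold change 0.46, adjusted p = 0.000351). LINC02313 rose less, from 10.8 ± 0.631 to 13.1 ± 1.27 FPKM (log2 fold change 0.26, adjusted p = 0.0189), and its call was lost without sh-CLGN replicate 2 (0.059) and without sh-CLGN replicate 3 (0.0652), with no filter (0.0562) and with voom (0.106). The other 4 did not pass the test. LINC01608 had the same mean in both groups, 14.4 FPKM, with a wider spread in sh-NC (SD 1.80) than in sh-CLGN (SD 0.231). The log2 fold changes were 0.15 for AC124067.4, 0.11 for AC087273.2 and -0.21 for AC008764.2, with adjusted p values of 0.0651, 0.466 and 0.393. AC124067.4 passed the adjusted p under GC correction, under each other scaling tried and without sh-NC replicate 3 (adjusted p of 0.00201 to 0.0234).

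**Figure D3:**
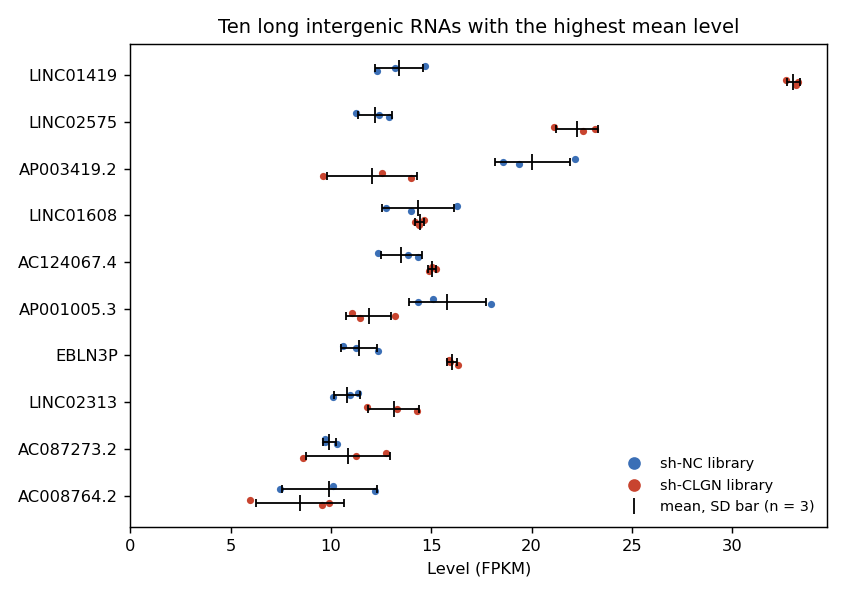
Level (FPKM) of the 10 members with the highest mean over the 6 libraries, with a point for each library, a tick for the group mean and a bar for the SD (n = 3 per group). LINC01419 and LINC02575 lie higher in all sh-CLGN libraries, AP003419.2 lies lower in all of them, and the groups overlap for LINC01608, AC087273.2 and AC008764.2.

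The largest rise was that of LINC02365, at chr4:184584093-184625030 (minus strand, up to 3 exons). It was low in control cells, at 0.565, 1.51 and 0.815 FPKM (10, 28 and 16 reads), and stood at 11.4, 11.4 and 9.23 FPKM in sh-CLGN (245, 236 and 189 reads). The log2 fold change was 2.59 (SE 0.168, adjusted p = 1.03e-05), and no libraries overlapped. Of the 440 members, 38 lie within 5 kb downstream of a coding gene on its strand, and 4 of the 38 were called higher (10.5%, against 3.09 percent of all tested genes). At adjusted p 9 of the 38 rose (23.7%) and 10 fell (26.3%), beside 41.5% and 14.4% of the other 402 members, and their median log2 fold change was 0.17. The difference between the 38 and the others was not tested.

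U73166.1 is 1 of these 4. It lies 947 bases downstream of GNAI2, a G protein subunit, at chr3:50260303-50263358 (plus strand). It held 21, 25 and 23 reads in the control libraries, against 157, 129 and 136 in sh-CLGN, at means of 0.597 ± 0.0478 and 3.24 ± 0.266 FPKM (log2 fold change 1.41, SE 0.0836, adjusted p = 6.93e-06), whereas GNAI2 changed by -0.08 (adjusted p = 0.373).

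AC009414.2 is a single-exon transcript of 366 bases at chr2:36354749-36355114 (minus strand) that points away from CRIM1, a membrane protein that binds bone morphogenetic proteins. It rose from a mean of 0.684 ± 0.113 FPKM (4, 3 and 4 reads) to 5.11 ± 1.46 FPKM (42, 24 and 27 reads), a log2 fold change of 1.84 (adjusted p = 3.61e-05). CRIM1 rose too, by 0.69 (adjusted p = 3.31e-05).

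AL353633.1 on chromosome 13 was covered by 0, 0 and 8 reads in the control libraries, and by 24, 22 and 16 reads after CLGN depletion. The log2 fold change was 1.67 with an SE of 0.317, the least certain of the 10 largest rises, and 2.09 without sh-NC replicate 3. Its nearest tested coding gene, SPRY2, an inhibitor of receptor tyrosine kinase signalling, lies 909486 bases away and fell by 0.79 on the log2 scale. AL590004.3, a single exon of 7060 bases on chromosome 6, rested on far more reads. It went from 0.0812, 0.146 and 0.220 FPKM (8 to 24 reads) to 2.36, 2.35 and 2.44 FPKM (272 to 283 reads), a log2 fold change of 1.56 (SE 0.0916, adjusted p = 6.64e-06). FAM50B, 53599 bases away, changed by -0.33 (adjusted p = 0.0022).

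AC015909.1 lies 7311 bases from COL1A1 on the opposite strand, at chr17:50208944-50215922 (plus strand). In the control libraries 1, 6 and 0 reads fell on it, against 55, 55 and 67 in sh-CLGN (log2 fold change 1.28, adjusted p = 4.98e-05). COL1A1, a fibrillar collagen chain from the fibroblast list, rose beside it, from 0.263, 0.377 and 0.342 FPKM to 3.39, 3.12 and 3.35 FPKM (log2 fold change 1.69, adjusted p = 3.34e-06). Both stood under 1 FPKM in the control libraries.

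The remaining 3 of the 10 largest rises stood near genes that moved little or rose less. LINC01268, on chromosome 6, rose from 0.234, 0.273 and 0.352 FPKM to 2.35, 2.10 and 2.05 FPKM (log2 fold change 1.30, adjusted p = 1.5e-05), and MARCKS, an actin-binding kinase substrate 4541 bases away, changed by -0.04. AC009159.3, on chromosome 16, rose from 0.267, 0.596 and 0.241 FPKM to 2.27, 2.28 and 3.54 FPKM (log2 fold change 1.43, adjusted p = 0.00014), and the transcription factor gene MAF, 5087 bases away, rose by 0.31. AC092919.1, with 3 to 5 reads in each sh-NC library and 13 to 28 in sh-CLGN, rose by 1.42 (adjusted p = 0.000507), and the kinase gene TNIK, 7675 bases away, by 0.70.

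The rule for falls left 2 members. AP001065.1, at chr21:44477850-44478493 (plus strand), fell from 4.90, 6.59 and 5.82 FPKM to 2.11, 1.23 and 1.44 FPKM (log2 fold change -1.39, SE 0.14, adjusted p = 7.75e-05). It lies 15653 bases downstream of LRRC3, which fell by 0.62 on the log2 scale (adjusted p = 0.00016). The next member on that strand is LINC02575, 7083 bases further on, which rose. Neighbours on 1 strand of chromosome 21 thus moved in opposite directions.

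AL138895.1, at chr9:114396724-114398503 (minus strand), was covered by 6, 5 and 12 reads in the control libraries, against 4, 2 and 2 in sh-CLGN (log2 fold change -1.01, SE 0.231, adjusted p = 0.00526). It is a spliced transcript of 173 bases, 2318 bases from AKNA on the same strand. AKNA, which encodes a microtubule-organizing protein, was called lower at -1.21 (5.36 ± 0.134 against 13.7 ± 1.09 FPKM, adjusted p = 5.49e-06). The fold of AL138895.1 dropped under the threshold without sh-NC replicate 3 (-0.76), without sh-CLGN replicate 2 (-0.93) and without sh-CLGN replicate 3 (-0.94).

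**Figure D4:**
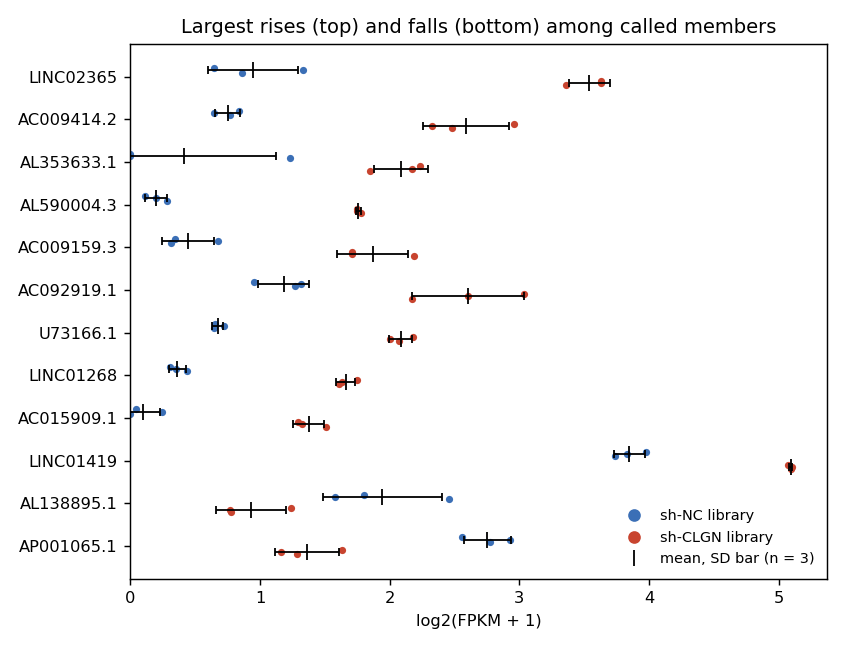
Values on the log2(FPKM + 1) scale of the 10 members with the largest rises and the 2 with falls among called members whose groups did not overlap, with a point for each library, a tick for the group mean and a bar for the SD (n = 3 per group). LINC02365 shows the widest gap, and AL353633.1 has 1 sh-NC library apart from 2 at 0.

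Members were also grouped by their position relative to coding genes. The nearest tested protein-coding gene overlapped 62 members, lay within 5 kb of 137, between 5 and 50 kb of 101 and beyond 50 kb of 140. The medians of the members' log2 fold changes in these classes were 0.17, 0.27, 0.23 and 0.27, and 2, 16, 5 and 12 of them were called higher, which is 3.23%, 11.7%, 4.95% and 8.57% of each class beside 3.09 percent of all tested genes. At adjusted p alone the shares that rose were 33.9%, 39.4%, 44.6% and 40%, which puts the classes in another order, and differences between the classes were not tested. Single-exon genes (129 members) had a median of 0.30 and genes with 2 or more exons (311 members) one of 0.22. By name, 279 members carry a clone identifier (median 0.28), 97 a LINC number (0.15) and 22 an antisense name (0.06). GC content moved with the result. With the members split by GC content into 4 classes of 110, from the lowest to the highest, the medians were 0.39, 0.24, 0.26 and 0.02. The numbers called higher were 14, 11, 6 and 4. That is 12.7%, 10%, 5.45% and 3.64% of each class, beside 3.09 percent of all tested genes. Differences between the GC classes were not tested. With the GC trend removed over all tested genes, the median of the members was 0.30 and 48 were called higher and 1 lower. The median of all tested genes shifted upward as well, by 0.07, and the share of them called was not counted.

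A divergent arrangement, in which the member and a tested coding gene start within 2 kb of each other on opposite strands and point apart, was found for 102 members. The starts were a median of 267 bases apart, and in 88 pairs the member had the lower level. The members of these pairs had a median log2 fold change of 0.27 and the coding genes one of -0.08. Both rose in 36 pairs by sign and both lay lower in 24, while the member was higher and the gene lower in 34 and the reverse held in 8. In 41 pairs both passed the adjusted p, and in 19 of them both rose, in 7 both fell and in 15 the member rose and the gene fell. Of the 102 members, 45 rose (44.1%) and 10 fell (9.8%) at adjusted p, beside 26.7 and 39.0 percent of all tested genes. None of the 41 pairs had a member that fell and a gene that rose, and with 10 members lower few pairs could. In no pair did both pass the call. Both RNAs of a pair were measured in the same libraries, so the counts are a description.

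**Figure D5:**
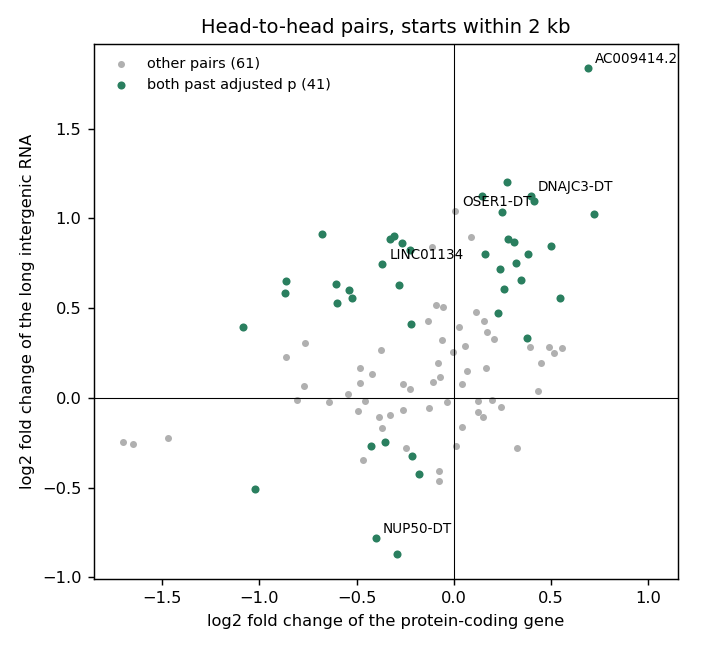
Log2 fold change (sh-CLGN minus sh-NC) of the member against that of its coding partner in 102 head-to-head pairs, with the 41 pairs in which both passed the adjusted p in green. Green points fill 3 quadrants, and the one with a lower member and a higher gene holds none. Only 10 of the 102 members fell at adjusted p.

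The 10 members whose official name marks a divergent transcript (suffix -DT) show the range, and this set was taken after values had been seen. Of the 10, 7 rose (70%, against 26.7 percent of all tested genes) and 2 fell (20%, against 39.0 percent) at adjusted p. OSER1-DT and DNAJC3-DT were called higher (20%, against 3.09 percent). The promoters of these and of NUP50-DT, the member of the set that fell most, are shown because each start region serves both RNAs of a pair described next. They come from RefSeq (GRCh38.p14) and run from 250 bases before the start to 50 after it, on the member's strand. Capitals mark the motifs CCAAT and GGGCGG and the palindrome CACGTG. Both strands were searched, so a motif can stand as its reverse complement, and overlapping matches are joined. DNAJC3-DT is at chr13:95676876-95677175 (minus strand), OSER1-DT at chr20:44210710-44211009 (plus strand) and NUP50-DT at chr22:45163732-45164031 (minus strand).
DNAJC3-DT: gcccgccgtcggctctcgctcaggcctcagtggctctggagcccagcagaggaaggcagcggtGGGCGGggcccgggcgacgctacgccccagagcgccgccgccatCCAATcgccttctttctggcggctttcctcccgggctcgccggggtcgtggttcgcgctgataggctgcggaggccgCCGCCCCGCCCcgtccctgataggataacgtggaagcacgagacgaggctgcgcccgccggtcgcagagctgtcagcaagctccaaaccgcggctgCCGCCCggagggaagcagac
OSER1-DT: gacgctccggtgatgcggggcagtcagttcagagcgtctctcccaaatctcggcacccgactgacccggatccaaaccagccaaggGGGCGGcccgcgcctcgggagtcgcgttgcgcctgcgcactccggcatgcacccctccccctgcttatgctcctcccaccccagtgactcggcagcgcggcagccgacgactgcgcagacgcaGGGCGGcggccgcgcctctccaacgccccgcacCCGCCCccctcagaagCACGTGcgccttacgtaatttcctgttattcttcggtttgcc
NUP50-DT: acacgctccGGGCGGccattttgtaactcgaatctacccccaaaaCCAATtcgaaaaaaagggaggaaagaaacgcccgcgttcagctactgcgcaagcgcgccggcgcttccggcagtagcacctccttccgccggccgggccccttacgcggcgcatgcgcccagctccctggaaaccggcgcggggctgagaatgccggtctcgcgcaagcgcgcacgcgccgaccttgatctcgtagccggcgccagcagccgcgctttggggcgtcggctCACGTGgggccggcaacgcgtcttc

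Of the set, DNAJC3-DT and AFDN-DT reached 1 FPKM in the sh-CLGN libraries alone, so that they had to lie higher there. DNAJC3-DT starts 214 bases from DNAJC3, which encodes an endoplasmic reticulum co-chaperone that restrains the kinases of the translation initiation factor eIF2. The transcript measured 0.500, 0.933 and 0.687 FPKM in sh-NC and 2.88, 2.84 and 2.39 FPKM in sh-CLGN (log2 fold change 1.12, SE 0.115, adjusted p = 8.51e-05). DNAJC3 rose by less, 0.39 (adjusted p = 0.00433). OSER1-DT measured 2.26, 2.98 and 2.19 FPKM in sh-NC and 5.61, 6.11 and 6.66 FPKM in sh-CLGN (log2 fold change 1.04, SE 0.101, adjusted p = 6.63e-05). The oxidative stress-responsive gene OSER1, 169 bases away, stood at a mean of 26.4 FPKM in sh-NC and 26.5 FPKM in sh-CLGN (log2 fold change 0.01, adjusted p = 0.936), so that the member rose and the partner's values gave no difference past the test.

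NUP50-DT measured 7.03, 6.39 and 7.34 FPKM in sh-NC and 3.86, 3.61 and 3.34 FPKM in sh-CLGN (log2 fold change -0.78, SE 0.0725, adjusted p = 5.19e-05). NUP50, a nucleoporin gene that starts 60 bases away, fell with it, by 0.40 on the log2 scale (adjusted p = 0.000488). FLVCR1-DT (0.41) rose beside a partner that fell (FLVCR1, a heme and choline transporter gene, -0.22), whereas AFDN-DT (0.56) and FAM111A-DT (0.60) rose with theirs (AFDN 0.54, FAM111A 0.26). EIF3J-DT rose by 0.26 and BAIAP2-DT fell by 0.46 on the log2 scale beside partners that did not pass the test, and ZNF236-DT changed by -0.17 (adjusted p = 0.356).

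RefSeq promoters matched 99 of the 440 members by symbol, chromosome and strand, and 73 of the 99 start within 100 bases of the start in the annotation of the files. CCAAT was in 44.4% of them and in 34.6% of all 35116 promoters of the table, and GGGCGG in 53.5% and 45%. TATAAA was in 8.08% against 11.5%, CACGTG in 7.07% against 7.26% and TGACTCA in 4.04% against 4.95%. In the 73 alone the shares were 45.2% for CCAAT, 57.5% for GGGCGG, 8.22% for TATAAA and for CACGTG, and 2.74% for TGACTCA. Among the 40 matched members that rose at adjusted p, CCAAT was in 42.5% and TATAAA in 0. Among the 21 that fell, they were in 66.7% and 14.3%, the second being 3 promoters. The 40 and the 21 come from all 99, so some of these promoters lie far from the annotated start. The distance was 19991 bases for CASC20, which fell and holds TATAAA, and 168883 bases for LINC02428, which rose. Both strands were searched, and a match is a description of the letters only.

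MicroRNA host genes were read as a group of 7 members with names of the form MIR...HG. MIR34AHG was called higher, MIR3142HG rose, MIR4435-2HG fell and 4 did not pass the test, and the group's median was -0.13. At adjusted p 28.6% of the 7 rose and 14.3% fell, beside 26.7 and 39.0 percent of all tested genes. The share called higher was 14.3%, beside 3.09 percent. The mature strands of the hosts below are printed from RefSeq with the seed (bases 2 to 8) in capitals, since the seed sets which messages a microRNA pairs with. The libraries measured the host transcripts, not the mature microRNAs.
hsa-miR-34a-5p (MIR34AHG): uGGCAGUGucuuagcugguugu
hsa-miR-146a-5p (MIR3142HG): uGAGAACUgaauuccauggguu
hsa-miR-3142 (MIR3142HG): aAGGCCUUucugaaccuucaga
hsa-miR-4435 (MIR4435-2HG and CYTOR): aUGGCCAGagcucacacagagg
hsa-miR-122-5p (MIR122HG): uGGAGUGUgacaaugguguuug
hsa-miR-210-3p (MIR210HG): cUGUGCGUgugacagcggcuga

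MIR34AHG, at chr1:9148011-9198906 (minus strand), is the primary transcript of miR-34a, a microRNA induced by p53. It was low in control cells, at 0.214, 0.386 and 0.260 FPKM (26 to 49 reads), and stood at 1.63, 1.64 and 1.68 FPKM in sh-CLGN (234 to 241 reads). The log2 fold change was 1.05 (SE 0.0961, adjusted p = 5.04e-05), and it was 0.79, under the fold threshold, after quantile normalization. MIR3142HG, at chr5:160438594-160487426 (plus strand), holds miR-3142 and miR-146a, the second of which is induced by NF-kB and targets components of that pathway. It rose from 2.71, 3.43 and 3.59 FPKM to 7.22, 5.83 and 7.61 FPKM (log2 fold change 0.89, SE 0.113, adjusted p = 0.000256). In MIR3142HG every sh-CLGN library lay above every sh-NC library. MIR34AHG reached 1 FPKM in the sh-CLGN libraries alone, so it had to lie higher there.

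MIR122HG, which carries the liver's most abundant microRNA, measured 3.06, 2.29 and 3.03 FPKM in sh-NC and 2.74, 2.32 and 2.27 FPKM in sh-CLGN (log2 fold change -0.13, SE 0.104, adjusted p = 0.285). MIR210HG, host of the hypoxia-induced miR-210, stood at means of 1.35 ± 0.185 and 1.37 ± 0.0868 FPKM (log2 fold change 0.01, adjusted p = 0.914). The groups overlapped for both. MIR548XHG (-0.18, adjusted p = 0.159) and MIR4713HG (-0.35, adjusted p = 0.236) did not pass the test either.

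MIR4435-2HG and CYTOR are a duplicated pair on chromosome 2 whose microRNA genes give the same mature miR-4435, printed above, with the same seed. MIR4435-2HG fell from 1.92, 1.96 and 1.82 FPKM to 1.29, 1.34 and 1.28 FPKM (log2 fold change -0.33, adjusted p = 0.00525). CYTOR, a cytoskeleton regulator RNA, fell from 1.14, 1.29 and 1.25 FPKM to 0.776, 0.724 and 0.616 FPKM (log2 fold change -0.38, adjusted p = 0.00651). Of the 50-base stretches of MIR4435-2HG, 21.6% also occur in CYTOR, and 16.0% of those of CYTOR in MIR4435-2HG, so the counting could split reads between the 2 genes and the falls are not independent measurements.

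Of 46 long non-coding RNAs listed for liver and liver cancer, 22 were tested and 11 were members. LINC01419 and CASC9 were called higher, 6 of the 11 members rose at adjusted p, 3 fell and 2 did not pass. Over all tested genes 3.09 percent were called higher, 26.7 percent rose at adjusted p and 39.0 percent fell. Of the 6, CASC15, LINC01370 and LINC01134 reached 1 FPKM in the sh-CLGN libraries alone, and of the 3, CYTOR reached it in the sh-NC libraries alone, so the level fixed the direction of these 4. CASC9, on chromosome 8, rose from 3.41, 3.12 and 3.64 FPKM to 9.16, 8.74 and 7.27 FPKM (log2 fold change 1.09, SE 0.0903, adjusted p = 3e-05). With the GC trend removed its log2 fold change was 0.86. CASC15, of which SOX4 is the nearest tested coding gene, held 41 to 45 reads per sh-NC library, against 244 to 255 in sh-CLGN (log2 fold change 0.81, adjusted p = 0.000174), and SOX4 changed by -0.59. LINC01370 rose by 0.83 on 2 to 4 reads in each sh-NC library and 15 to 18 in sh-CLGN (adjusted p = 0.000262).

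LINC01134 starts 79 bases from C1orf174 and rose from 0.758, 0.826 and 0.493 FPKM to 1.73, 2.06 and 1.71 FPKM (log2 fold change 0.74, adjusted p = 0.000561), while C1orf174 changed by -0.37 (adjusted p = 0.000563). UCA1, first described in bladder cancer, rose by 0.26 (2.11 ± 0.102 against 2.73 ± 0.286 FPKM, adjusted p = 0.0227). LINC00467 fell by 0.19 on the log2 scale (adjusted p = 0.0304). The call of UCA1 was lost without sh-NC replicate 3, sh-CLGN replicate 1 or sh-CLGN replicate 3 (adjusted p of 0.0515 to 0.0865), with no filter (0.0582) and with quantile normalization (0.0975). That of LINC00467 was lost without each library other than sh-NC replicate 3 (0.0626 to 0.104), with the replicate number as a block (0.0544), with no filter (0.0517), with TPM (0.293) and after scaling by read totals (0.679). CRNDE (-0.12) and LINC01146 (-0.14) did not pass, with adjusted p values of 0.358 and 0.232.

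Of 14 stress-responsive long non-coding RNAs listed, 6 were tested and 5 were members, namely MIR34AHG, UCA1, EPB41L4A-AS1, TP53TG1 and MIR210HG. TP53TG1, a p53-induced transcript, measured 4.34, 3.48 and 2.97 FPKM in sh-NC and 3.28, 3.52 and 3.69 FPKM in sh-CLGN (log2 fold change -0.02, SE 0.11, adjusted p = 0.873), so the groups overlapped. EPB41L4A-AS1 fell from 3.71, 3.58 and 3.71 FPKM to 2.68, 2.85 and 2.19 FPKM (log2 fold change -0.39, adjusted p = 0.00402). It shares 46.9% of its 50-base stretches with EPB41L4A and is uncertain for that reason.

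The 2 lists of RNA decay factors, which set how long non-coding transcripts last, were read beside the members. Of 25 tested factors of nuclear decay (the exosome and its partner complexes), 3 rose, 14 fell and 8 did not pass, with a median log2 fold change of -0.27. ZFC3H1, a subunit of an exosome targeting complex, rose from a mean of 2.12 to 4.95 FPKM (log2 fold change 0.93, adjusted p = 1.96e-05), and the exosome nuclease DIS3 from 5.65 to 8.60 FPKM (0.53, adjusted p = 0.000182), both named after their values were seen. Of 18 factors of nonsense-mediated decay, 4 rose, 11 fell and 3 did not pass, with a median of -0.24. Over the 2 lists together, the 3 with the smallest adjusted p were SMG5 (-1.03), UPF1 (-0.91) and EXOSC2 (-0.73). They went from 88.3 to 42.8, 68.9 to 36.2 and 21.9 to 12.8 FPKM. SMG5 and UPF1 are from the nonsense-mediated decay list and EXOSC2 is from the nuclear decay list. The shares that fell were 56% of the nuclear decay list and 61.1% of the nonsense-mediated decay list. Among all tested genes 39.0 percent fell at adjusted p. Among the tested protein-coding genes, the like background for these lists, 43.5 percent fell and the median was -0.12. The part of these factors in the members' levels was not tested.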

How the data were processed

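Per the labels, the library kit was NEBNext Ultra. The FPKM values deposited by the authors come as 1 table with gene lengths. The submitters' processing notes name HISAT2 2.0.5, featureCounts and GRCh38, and the strand setting and the authors' test are not given in the sources used here. All 58735 positions equalled GENCODE 29. FPKM times length fell on whole reads (tolerance 0.01) for 100% of values, and 1 read at 1 kb was worth 0.0589 to 0.0717 FPKM. Reads carried no molecular identifiers, so a count of reads is not a count of molecules. Between libraries of the same group the mean chi-square per tested gene was 2.23 to 8.70, above what counting error alone gives.

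Groups came from the labels. The fit was limma 3.58.1 (R 4.3.3, eBayes with trend) on log2(FPKM + 1) over genes that reached 1 FPKM in 3 or more libraries, two-sided, Benjamini-Hochberg adjusted over 13074 genes, and was tested on simulated data. Named are the 10 highest members, the 10 largest rises and the falls among called members with separated groups, members of the lists, those at the edge of the level, nearest genes of the largest changes and 3 decay factors, with others chosen after their values were seen. A few named under this rule are left out of the text. The members and lists were chosen with earlier results of these data known. Alternatives were a pseudocount of 0.1, no filter, TPM, read totals, quantile normalization, GC correction (lowess span 0.3), voom, a replicate block, non-coding genes only and leaving out each library. Figures used matplotlib 3.10.9 (Python 3.11.15).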

Additional observations from a re-analysis of the deposited data

Results flagged for a closer look

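The 7180 long intergenic RNAs below the level lie outside the comparison of the members, and their reads differed between the groups. They held 0.0562%, 0.0567% and 0.0601% of the reads in the control libraries, against 0.104%, 0.104% and 0.102% in sh-CLGN, a ratio of means of 1.796. Their summed FPKM was 1.65 times as high in sh-CLGN, and at least 1 read lay on 1592 ± 28.3 of them in sh-NC and 2185 ± 29.9 of them in sh-CLGN (mean ± SD, n = 3). The difference was not tested.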

How the results depend on the processing

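The number of members called, 37 (35 higher and 2 lower), was 111 (100 and 11) with a pseudocount of 0.1, 108 (101 and 7) with TPM, 119 (108 and 11) with voom and 24 (19 and 5) with quantile normalization. It was 48 higher and 1 lower both with read totals and with GC correction. Of the 37, 20 remained called under quantile normalization, 32 under GC correction and 30 to 33 with a library left out, where the number called ranged from 33 to 40 (31 to 37 higher, 2 to 3 lower). Members lower at adjusted p, 68, were 39 with no filter, 38 with read totals and 44 with GC correction. Under the alternatives, the shares of all tested genes called or past the adjusted p were not counted. The median of the members, 0.25, was 0.3855, 0.4473, 0.3706, 0.1211, 0.3031 and 0.4018 with a pseudocount of 0.1, TPM, read totals, quantile normalization, GC correction and voom, and 0.2087 to 0.2712 with a library left out. It stayed above 0 under each. The median of all tested genes shifted by 0.11 with TPM, 0.16 with read totals, 0.06 with quantile normalization and 0.07 with GC correction. It shifted by -0.01 with a pseudocount of 0.1 and by -0.02 with voom. Restricting the members to the 213 at 1 FPKM in all 6 libraries, an alternative added after seeing the data, gave 10 called (9 and 1), 112 past the adjusted p (66 and 46), a median of 0.04988 and ratios of 1.399 for reads and 1.112 for summed FPKM. Without XIST, the member with the most reads, added likewise, the ratio of reads was 1.403. The cause of these shifts was not tested, except that the restricted sets and the unfiltered fit change which genes are counted.

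Of 49 named members (41 by the rule and 8 with the suffix -DT), 37 passed the adjusted p, and 31 of these kept sign and side under all 15 alternatives. A change of sign was seen for 6 members, none of which passed the test. LINC01608 was -0.07891 with GC correction and ran from -0.06328 to 0.1022 with a library left out. AC087273.2 was -0.008564 without sh-CLGN replicate 1. TP53TG1 was 0.09449 with TPM, 0.1307 with read totals, 0.1322 with GC correction and ran from -0.1225 to 0.09203 with a library left out. MIR122HG was 0.006038 with read totals and ZNF236-DT 0.01872 with GC correction. MIR210HG was -0.1483 with quantile normalization and ran from -0.02243 to 0.07657 with a library left out.

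For libraries of the groups with the same replicate number, the deviations from the group means correlated at -0.02, -0.05 and -0.15. With 3 libraries per group this cannot show whether libraries with the same number were made together. With that number as a replicate block, 37 members were called (35 and 2) and 238 passed the adjusted p (176 and 62), and 36 of the 37 were shared with the fit without it. Depth limits the low members, since 3 reads or fewer lay on 7 of them in all sh-NC libraries and on 2 in all sh-CLGN libraries.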
